A study of Caenorhabditis elegans with 6 samples.

Results

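Mitochondria keep a small circular genome of their own, and in *C. elegans* all of its genes are read from the same strand. Its protein genes encode core subunits of the respiratory chain, the membrane complexes that pass electrons from NADH to oxygen and pump protons for ATP synthesis. Complexes I, III and IV join these subunits to others that are encoded in the nucleus and imported, so that each complex draws on both genomes. The genes described here are the 10 members *nduo-1* to *nduo-6* (subunits of complex I, the NADH dehydrogenase), *ctb-1* (cytochrome b, complex III) and *ctc-1* to *ctc-3* (the core subunits of complex IV, cytochrome c oxidase). They were chosen by name and not by a rule on their values, though with earlier results of these data known. They are 10 of 22588 genes in the overexpression table and of 22380 in the knockout table. The tables name only *ctb-1* by its symbol. The other 9 are listed under MTCE identifiers and were matched to RefSeq genes by overlap of position. In a separate gene annotation of the WBcel235 assembly, all 12 mitochondrial protein genes have the same start and end as in the tables.

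RNA of whole worms at adult day 1 was sequenced in 3 groups of 2 libraries each, to ask how the level of *hlh-30* changes gene expression in worms that make amyloid beta (Aβ). *hlh-30* encodes the worm counterpart of the mammalian transcription factor TFEB, known for driving autophagy and lysosome genes. The control was the Aβ strain GMC101, labelled WT, in which the muscle myosin promoter *unc-54*p drives Aβ1-42 in body wall muscle and *mtl-2*p drives GFP. The deposited design text names another Aβ strain, CL4176, in place of GMC101. The *hlh-30*-overexpressing worms carried the same transgenes plus *hlh-30*p::*hlh-30*::GFP, and the knockout worms carried the *syb6883* deletion of the first exons of *hlh-30* with the Aβ transgene. The methods describe growth to young adults followed by a day at a higher temperature to induce Aβ, for all groups alike. Thus every group expressed Aβ, and no worms without it were analysed here. The labels do not say that the libraries of a group came from separate cultures, so the p-values measure only the spread between these libraries.

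Each library held between 18098082 and 19300834 reads on genes. Values below are normalized reads, that is, reads divided by a factor for the depth of each library. The overexpression and knockout comparisons use the same control libraries, whose normalized values differ slightly between the tables because each table has its own factors. *hlh-30* was at 6022 and 5693 normalized reads in the overexpressing libraries and at 3102 and 3315 in the control, a log2 fold change of 0.87 ± 0.06 (SE, n = 2 libraries per group). In the knockout libraries it was at 2104 and 3005, against 3049 and 3258 in the control (−0.33 ± 0.17, limma with Benjamini-Hochberg adjustment, adjusted p = 0.511). Reads were counted over the whole gene and were not examined by exon, so these values do not settle whether the deletion was present. The replicate libraries of the knockout differed from each other by far more than those of the other groups, with a chi-square per gene of 38.1 against 4.46 in the control and 5.60 in the overexpressing group. Markers of muscle, intestine, hypodermis, neurons, germline, oocytes and sperm were all detected.

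The 10 members took about 1 in 100 reads on genes. Their share was 0.830% and 0.883% in the control, 0.870% and 0.871% in the overexpressing group and 1.04% and 1.07% in the knockout. The overexpressing libraries fell between the control libraries, whereas both knockout libraries lay above them. The 95% Wilson intervals of the control were 0.825% to 0.834% and 0.878% to 0.887%, and those of the knockout were 1.036% to 1.045% and 1.066% to 1.076%. These intervals cover counting error only. The knockout mean exceeded the control mean by 0.200 percentage points, from 0.856% ± 0.037 to 1.06% ± 0.022 (SD, n = 2 each). The exact two-sided permutation test gave p = 0.333, the smallest that 2 against 2 libraries allow. For overexpression the difference was 0.0142 percentage points (exact permutation p = 1). Because whole worms were sequenced, more mitochondrial RNA per cell and more cells rich in mitochondria cannot be told apart.

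Levels can be compared between genes only per length, as RPKM (reads per kilobase of gene, scaled to the reads on genes of the library). On this scale *ctc-3* was the most abundant member, with a median over the 6 libraries of 2781 (range 2520 to 3137). *ctc-1* followed with a median of 1674, *ctc-2* with 1554 and *ctb-1* with 905. The complex I genes were all lower, at medians of 505 for *nduo-1*, 493 for *nduo-5*, 490 for *nduo-3*, 336 for *nduo-4*, 159 for *nduo-2* and 31.6 for *nduo-6*. *ctc-1* and *ctc-2* overlapped in their ranges, as did *nduo-1* with *nduo-5* and *nduo-5* with *nduo-3*. The other neighbours in this order did not overlap, and each of these steps held in 6 of 6 libraries. The step from *nduo-2* to *nduo-6* was 5.04-fold in medians, the largest between neighbours. By this measure the members covered a wide span within a single small genome, with complex IV genes at the top and *nduo-6* at the bottom in every library.

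**Figure D1:**
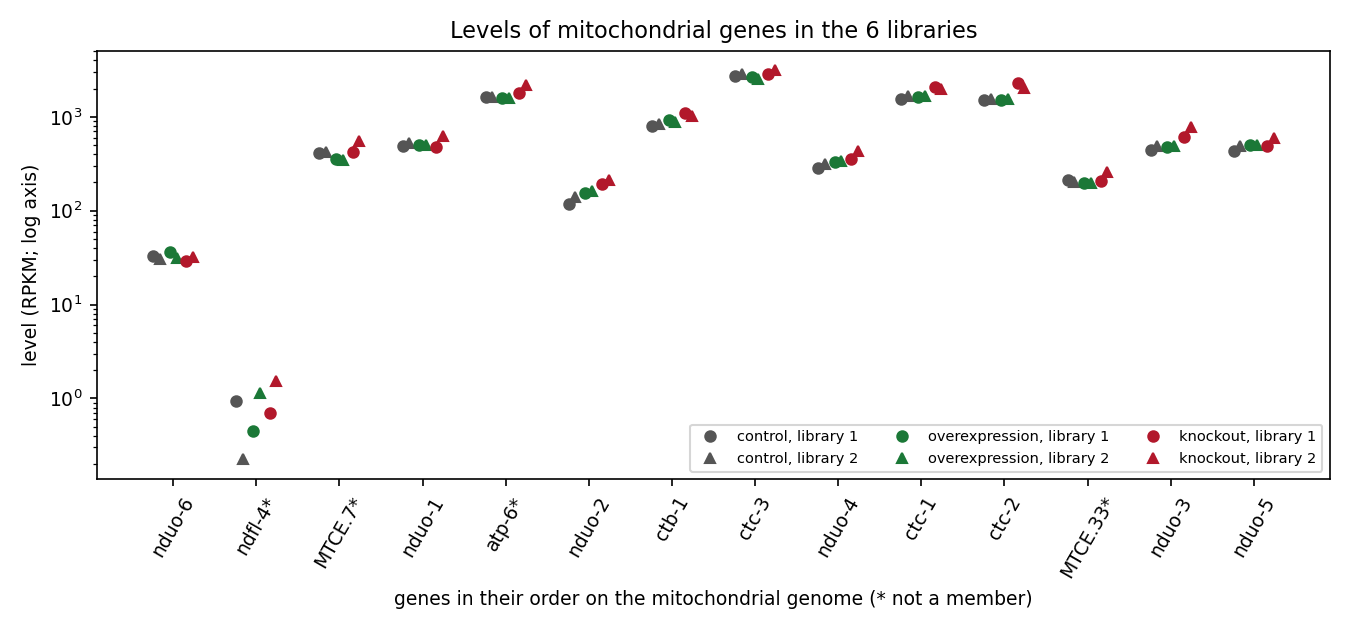
Level of each mitochondrial protein and rRNA gene in the 6 libraries, in RPKM on a log axis, with genes in their order along the mitochondrial genome and an asterisk on those that are not members. Circles and triangles are libraries 1 and 2 of each group. Among the members, levels are lowest at *nduo-6* (28.9 to 36.7), peak at *ctc-3* (2520 to 3137) and span a similar range in all groups. *ndfl-4*, not a member, lies lower still (0.22 to 1.54).

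Position along the genome is shown in the plot of levels in gene order. *nduo-6* lies first, at positions 113 to 549, and the adjoining *ndfl-4* (another complex I subunit, not a member) had only 1 to 7 reads in a library and was not tested. *atp-6*, the mitochondrially encoded subunit of ATP synthase, had a median of 1626, between *ctc-1* and *ctc-2*. The rRNA genes listed as MTCE.7 and MTCE.33 had medians of 413 and 205. They took 0.0431% to 0.0625% of reads on genes. The methods do not say whether library preparation removed rRNA or selected RNA with poly(A) tails. The rRNA levels can therefore not be set against those of the protein genes. Several mitochondrial genes overlap by a few bases. Among the members *nduo-2* shares 29 bases with 2 neighbouring genes, *ctc-1* shares 7 with 1, and no other member shares more than 2. How reads in shared bases were counted is not given in the sources used here.

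In the *hlh-30*-overexpressing worms the members stayed close to the control. The median log2 fold change of the 10 was −0.01, and 5 of 10 were above 0. A single member, *ctc-3*, fell at an adjusted p under 0.05, and none rose. Over all 15918 genes tested 14.8% passed that threshold, 6.71% higher and 8.06% lower, so the count among the members was near the background. No member changed 2-fold, as did 1.86% of all genes. The tests on whole reads also called *ctc-3* alone, lower with edgeR (7.02% of all genes higher, 7.82% lower) and with DESeq2 (5.12% and 6.17%). At an unadjusted p under 0.05 there were 3 of 10 members, 1 higher and 2 lower, against 28.9% of all genes (13.4% higher and 15.5% lower). Leaving out either control library gave 0 calls among all genes and thus none among the members.

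Among the complex IV genes, *ctc-3*, which encodes subunit III of cytochrome c oxidase, was at 37494 and 34960 normalized reads in the overexpressing libraries and at 40246 and 42306 in the control. Both overexpressing libraries lay below both control libraries, and the log2 fold change was −0.19 ± 0.05 (limma, adjusted p = 0.0228, n = 2 per group). Scaling to the summed reads on nuclear genes, in place of the deposited depth factors, moved it to −0.10 and ended the call. That setting also moved the median of all genes, from −0.00 to 0.09, so the shift was not particular to this gene. *ctc-2*, which encodes subunit II with its copper site, was at 19020 and 19426 against 20311 and 21066, also with no overlap (−0.11 ± 0.05, limma adjusted p = 0.149). *ctc-1*, the catalytic subunit I, was at 46791 and 48385 against 47631 and 51367. Its groups overlapped, and its fold change of −0.06 (limma adjusted p = 0.497) became 0.03 with scaling to nuclear genes.

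Cytochrome b, the product of *ctb-1*, carries the haems of the quinol oxidation and reduction sites of complex III. *ctb-1* was at 18838 and 17714 normalized reads in the overexpressing group and at 17012 and 17843 in the control. The groups overlapped (0.07 ± 0.05, limma adjusted p = 0.405). With scaling to nuclear genes its fold change was 0.16 and its adjusted p from limma 0.0453.

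Of the complex I genes, which all encode membrane subunits, *nduo-2* stood highest. It was at 2482 and 2586 normalized reads against 2008 and 2350. Both overexpressing libraries lay above both control libraries, by 0.22 ± 0.08 on the log2 scale, but the adjusted p from limma was 0.0709. It passed with scaling to nuclear genes (0.31, limma adjusted p = 0.0162) and when the first overexpressing library was left out (0.25, limma adjusted p = 0.0110). *nduo-1* was at 8025 and 7913 against 8263 and 8793, below the control in both libraries without passing the test (−0.10, limma adjusted p = 0.239). *nduo-3*, *nduo-4*, *nduo-5* and *nduo-6* overlapped with the control, with log2 fold changes between −0.02 and 0.08. Counted over all members, 1 lay wholly above the control and 3 wholly below it, where 27.9% and 29.4% of all genes did so.

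*atp-6* and the rRNA genes, the only other mitochondrial rows with enough reads to be tested, were lower in the overexpressing libraries. MTCE.7 was at 4436 and 4384 normalized reads against 5422 and 5693, and fell by 0.33 on the log2 scale (limma adjusted p = 0.0017). MTCE.33 was at 3396 and 3378 against 3843 and 3672 (−0.15, limma adjusted p = 0.0969). *atp-6* was at 17333 and 17177 against 18617 and 18948 (−0.12, limma adjusted p = 0.0890). In all 3 genes no overexpressing library reached a control library, which held for 29.4% of all genes. Only MTCE.7 passed the test, and it did so in 7 of the 10 alternative settings that use every library.

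**Figure D2:**
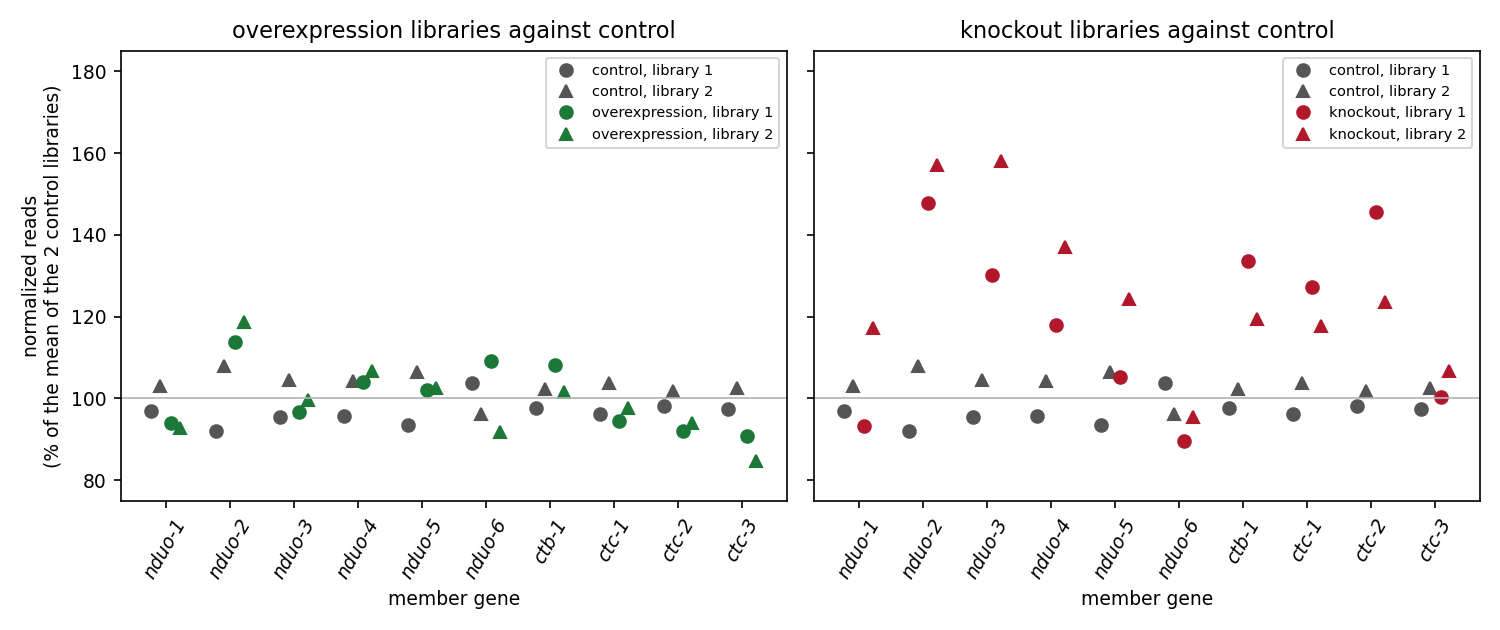
Normalized reads of each member in single libraries, as a percent of the mean of the 2 control libraries, for overexpression (left) and knockout (right). Grey is control, green overexpression and red knockout, with circles for library 1 and triangles for library 2. The green points mix with the grey ones for most genes, and the red points of *nduo-2*, *nduo-3*, *nduo-4*, *ctb-1*, *ctc-1* and *ctc-2* lie wholly above the grey ones.

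In the knockout worms 9 of 10 members had a higher mean log2 level than the control, with a median log2 fold change of 0.31 against 0.00 over all genes. None passed the test, in a comparison in which limma called 0.0127% of 15749 genes, 0.00635% in each direction. At an unadjusted p under 0.05, reached by 11% of all genes, there were 6 of 10 members, all higher, where 5.87% of all genes were higher and 5.11% lower. The same tests on whole reads called 0 members with edgeR (0.00635% of all genes in each direction) and 1, *nduo-2*, with DESeq2, which called 0.552% of all genes as higher and 0.197% as lower. In 6 members both knockout libraries lay above both control libraries, and in 1 below, against 22.4% and 23.4% of all genes. The count of calls depended on single libraries. Without the first knockout library limma called 4075 genes, 8 of the members among them and all higher, and without the second it called 2792 genes and 6 members, also all higher. Those fits take the lone library to vary as the control libraries do. Without either control library there were 0 calls.

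*nduo-2* showed the largest difference among the members. It was at 3163 and 3363 normalized reads in the knockout and at 1973 and 2310 in the control, a fold of 1.53 (log2 0.61 ± 0.11, limma unadjusted p = 0.0017, adjusted p = 0.383). With DESeq2 its adjusted p was 0.0180, and over all 9 alternative settings that use every library it ranged up to 0.540. *nduo-3* was at 3835 and 4651 against 2808 and 3079 (0.52 ± 0.12, limma adjusted p = 0.394). *nduo-4* was at 8684 and 10087 against 7038 and 7684 (0.35 ± 0.10, limma adjusted p = 0.411). All 3 complex I genes had no overlap between knockout and control.

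*nduo-5* was at 14430 and 17011 normalized reads against 12811 and 14578, so that the first knockout library fell within the control range (0.20, limma adjusted p = 0.531). *nduo-1*, whose product lies where the membrane arm of complex I meets its peripheral arm, was at 7825 and 9815 against 8120 and 8642. Its knockout libraries lay on either side of the control (0.07, limma adjusted p = 0.851). The least abundant member, *nduo-6*, was at 234.2 and 249.9 against 271.3 and 252.0, and was the sole member below 0 (−0.11 ± 0.17, limma adjusted p = 0.810).

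Complex IV genes differed among themselves. *ctc-2* was at 29624 and 25106 normalized reads against 19961 and 20703 (0.42 ± 0.10, limma adjusted p = 0.394), and *ctc-1* at 61863 and 57301 against 46810 and 50484 (0.29 ± 0.08, limma adjusted p = 0.402). *ctc-3*, the most abundant member, was at 40699 and 43255 against 39552 and 41579 and overlapped with the control (0.05 ± 0.07, limma adjusted p = 0.812). *ctb-1* of complex III resembled *ctc-1*, at 22864 and 20461 against 16719 and 17536 (0.34 ± 0.09, limma adjusted p = 0.394). Outside the members, *atp-6* was at 19968 and 23453 against 18296 and 18623 (0.23, limma adjusted p = 0.462), and MTCE.7 and MTCE.33 had log2 fold changes of 0.15 and 0.12 with overlapping groups.

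**Figure D3:**
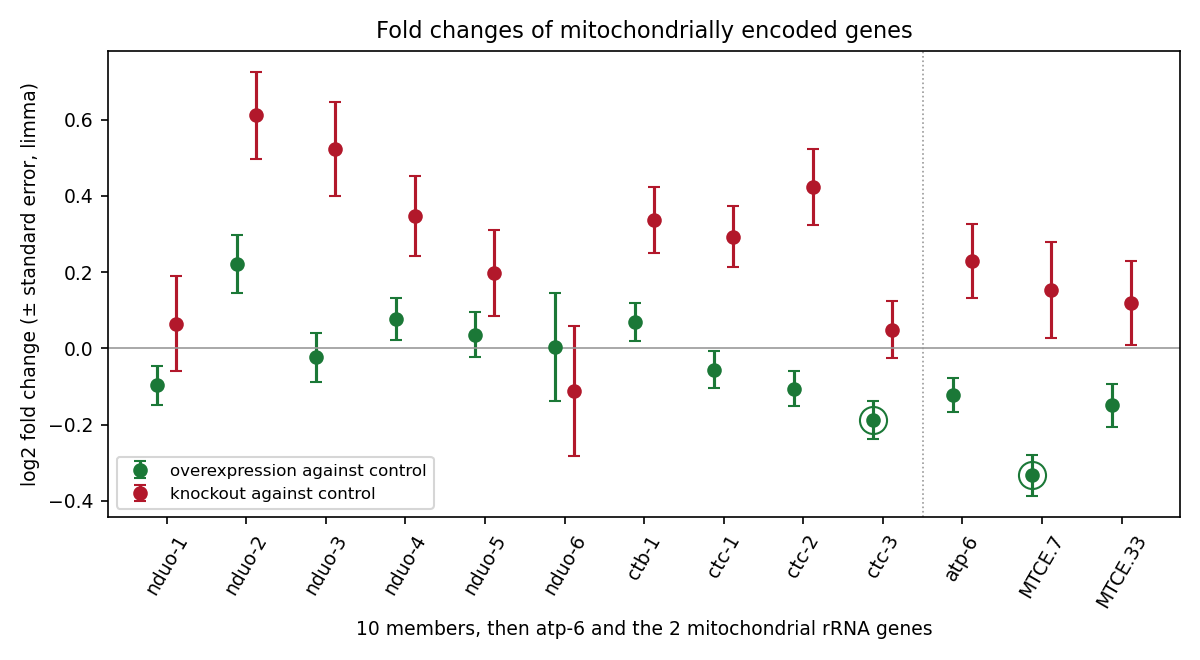
Log2 fold change with its standard error from limma for the 10 members, *atp-6* and the 2 mitochondrial rRNA genes, in overexpression (green) and knockout (red) against the same control libraries. Large open circles mark an adjusted p under 0.05, which *ctc-3* (−0.19) and MTCE.7 (−0.33) reached in overexpression and no gene in the knockout, where *nduo-2* lies highest at 0.61.

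The 2 knockout libraries did not order the members alike. *ctc-2*, *ctb-1* and *ctc-1* were higher in the first library, by 0.24, 0.16 and 0.11 on the log2 scale of normalized reads. The other 7 members were higher in the second, with first-to-second log2 ratios from −0.33 for *nduo-1* to −0.09 for *ctc-3*. *atp-6* (−0.23), MTCE.7 (−0.33) and MTCE.33 (−0.24) went with those 7. In the control 9 of 10 members were higher in the second library, with *nduo-6* as the exception, by ratios from −0.23 to −0.05. Other features also differed between the knockout libraries. The summed level of 7 intestine markers was 25671 and 18949 RPM (reads scaled to library size) in them, against 24099 and 26947 in the control and 28456 and 29814 in the overexpressing group. That of 7 oocyte and embryo markers was 6063 and 4132, against 5457 and 5184 in the control, and that of 4 hypodermis markers was 1786 and 2688, against 2426 and 2288. Their part in the members' values was not tested.

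**Figure D4:**
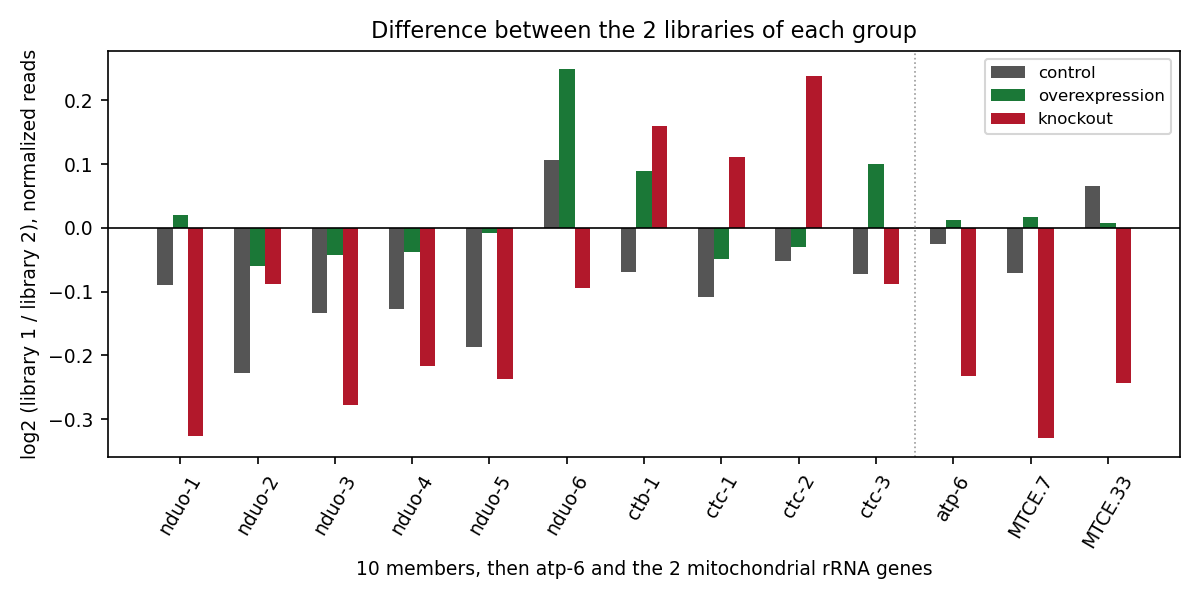
Log2 ratio of library 1 to library 2 of normalized reads within each group, for the 10 members, *atp-6* and the 2 rRNA genes (grey control, green overexpression, red knockout). Bars of the knockout point up for *ctb-1*, *ctc-1* and *ctc-2* (0.11 to 0.24) and down for the other genes, reaching −0.33 at *nduo-1* and MTCE.7.

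Across the 6 libraries the log2 levels of member pairs correlated with a median Pearson r of 0.69, from −0.61 to 0.98. Every negative value involved *nduo-6*. These points share their libraries and depth, so the coefficients only describe this set. *ctc-1* and *ctc-2*, neighbouring protein genes, had r = 0.98. *ctc-3* with *ctb-1*, also neighbours, had r = 0.46.

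The nuclear partners of these genes were examined through a list of 28 subunits of complexes I, III and IV. In the overexpressing worms 17 of 28 fell, none rose and all 28 were below 0, with a median log2 fold change of −0.23. Over all genes 8.06% fell. The 17 comprised 8 of 14 complex I genes, 4 of 7 complex III genes and 5 of 7 complex IV genes. *ucr-2.3*, a core protein gene of complex III, was at 2536 and 2249 normalized reads against 3634 and 3096 (−0.49, limma adjusted p = 0.0020). *cox-4*, a subunit gene of complex IV, was at 7429 and 6902 against 8750 and 8701 (−0.29, limma adjusted p = 0.0036), and *nuo-1*, of the NADH-binding arm of complex I, at 5727 and 5375 against 6950 and 6785 (−0.31, limma adjusted p = 0.0026). With scaling to nuclear genes 7 of 28 fell, against 3.32% of all genes, and the median was −0.14. The number called was 0 of 28 without a filter on low reads, without the mean trend and in a single fit of all 6 libraries. In these settings at most 0.0184% of all genes were called lower, and all 28 stayed below 0. Without either control library there were none.

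Markers of several cell types moved in the same comparison. The summed level of 7 body wall muscle markers was 6890 and 6998 RPM in the overexpressing libraries against 7927 and 7782 in the control. In the knockout it was 6992 and 7149 RPM, with 3 of 7 genes above 0 and a median log2 fold change of −0.05. There limma called 0 of the 7. DESeq2 called 2 higher and 0 lower, against 0.552% and 0.197% of all genes. In overexpression 5 of these 7 fell, among them *unc-54* (−0.27), and 2 rose, *ttn-1* (0.52, limma adjusted p = 0.0032) and *unc-22* (0.31, limma adjusted p = 0.0090). Of 7 germline markers 4 fell, with a median log2 fold change of −0.26, and their sum was 3730 and 3770 RPM against 4118 and 3840. Of 7 sperm markers 4 fell, with a median of −0.48 and sums of 169 and 197 against 272 and 225. Of 7 intestine markers 4 rose, with a median of 0.23. The part of these cell types in the levels of the nuclear subunits was not tested.

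In the knockout 0 of 28 nuclear subunits passed in limma, edgeR or DESeq2, 5 were lower at an unadjusted p under 0.05 (5.11% of all genes), and 26 were below 0 with a median of −0.14. Without the first knockout library 15 of 28 were called lower, against 15.2% of all genes, and without the second 7, against 9.38%. *ucr-2.3* was at 2497 and 2336 normalized reads against 3572 and 3043 (−0.45, limma adjusted p = 0.394). Complex II, which has no mitochondrially encoded subunit, had 3 of 5 genes lower in overexpression with a median of −0.18. Of the nuclear genes of ATP synthase 7 of 10 were lower, with a median of −0.22. Over all genes 8.06% were called lower, and 3.32% with scaling to nuclear genes. With scaling to nuclear genes 0 of 5 and 3 of 10 were called lower, with medians of −0.09 and −0.13, and without either control library none. For complex II both DESeq2 and TMM scaling called 1 of 5. Neither list had a call without a filter on low reads, without the mean trend or in the 6-library fit. In the knockout 0 genes passed in either list, and the medians were −0.13 and −0.10. At an unadjusted p under 0.05 there were 0 and 1. The 2 medians were −0.25 and −0.15 without the first knockout library, and −0.01 and −0.04 without the second.

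The ratio of reads on mitochondrial to reads on nuclear subunit genes within a library does not depend on scaling between libraries. This measure was formed after the values had been seen. For complex III it was 0.464 and 0.485 in the control, 0.606 and 0.593 in the overexpressing group and 0.714 and 0.660 in the knockout. For complex I it was 0.712 and 0.796, 0.871 and 0.920, and 0.880 and 1.15 in the same order. For complex IV it was 2.76 and 2.92, 3.04 and 3.09, and 3.61 and 3.68. In each complex both altered groups lay above both control libraries. The 2 sides of the ratio differed between the groups. The share of reads on the members lay between the control libraries in overexpression and above them in the knockout. Summed nuclear subunit levels were below the control in both groups. For complex IV they were 2051 and 2041 RPM in the control, 1875 and 1849 in overexpression and 1970 and 1911 in the knockout. Means taken on the log2 scale, turned back into ratios to the control, were 1.19, 1.26 and 1.08 for complexes I, III and IV in overexpression. In the knockout they were 1.34, 1.45 and 1.29. The exact two-sided permutation test gave p = 0.333 for each, the smallest that 2 against 2 libraries allow.

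**Figure D5:**
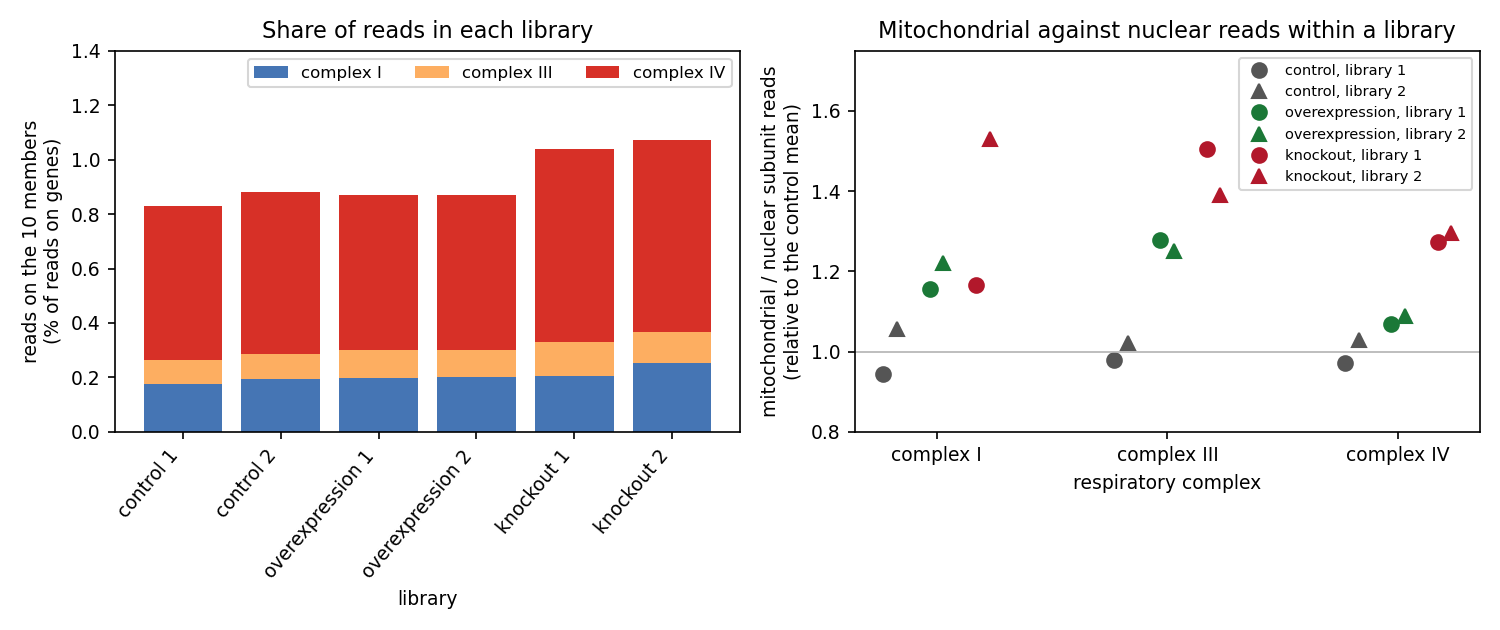
Left, reads on the 10 members as a percent of reads on genes in each library, stacked by complex, with the knockout libraries at 1.04% and 1.07% and the others between 0.830% and 0.883%. Right, reads on mitochondrial over nuclear subunit genes of each complex per library, relative to the control mean, where all green and red points lie above the grey ones.

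Further lists can be read against the 6.71% of all genes that rose in overexpression and the 8.06% that fell. Among the genes that handle mitochondrial DNA and RNA, 9 of 10 listed were in the tables. *polg-1*, the mitochondrial DNA polymerase, fell in overexpression, from 1299.9 and 1259.8 to 958.8 and 931.8 normalized reads (−0.44, limma adjusted p = 0.0025), and was the only called gene of that list. In the knockout it was at 825.6 and 936.5 against 1277.5 and 1238.1 (−0.52, limma adjusted p = 0.394). *rpom-1*, the mitochondrial RNA polymerase that transcribes the members, had a log2 fold change of −0.13 in overexpression and did not pass. In the list of mitochondrial stress response genes 1 of 12 rose and 3 fell in overexpression. *dve-1*, a transcription factor of the mitochondrial unfolded protein response, rose by 0.59 (limma adjusted p = 0.0087), and *hsp-6*, the mitochondrial HSP70 chaperone, fell by 0.35 (limma adjusted p = 0.0008) on the log2 scale, with the protease gene *spg-7* and the import channel gene *timm-23* as the others that fell. Of 11 genes of mitochondrial dynamics and mitophagy *eat-3*, which acts in inner membrane fusion, rose by 0.26 (limma adjusted p = 0.0161). The mitophagy receptor gene *dct-1* and the outer membrane fusion gene *fzo-1* fell by 0.39 and 0.21, but the call of *fzo-1* was lost with edgeR (adjusted p = 0.0529) and DESeq2 (adjusted p = 0.0925). Of 9 complex IV assembly genes *cox-14* and *cox-15* fell, and both calls were lost with DESeq2 (adjusted p = 0.0948 and 0.0775). Neither of 2 cytochrome c genes passed. In the knockout no gene of these lists passed in limma, edgeR or DESeq2.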

How the data were processed

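RNA-seq libraries of whole worms were grouped by their GEO labels. The authors deposited 2 tables whose deposited signal columns give, per gene and library, the read count over a size factor. Their submitters' notes name HISAT2, featureCounts and DESeq2. Versions, build, annotation and strand setting are not given in the sources used here. The tables also hold the authors' own deposited log2 fold changes and p-values, which were not used. Multiplying by 1 factor per library gave whole reads for all values within 0.01, and recovered counts were the basis of shares, levels per length and the edgeR and DESeq2 alternatives. Levels per length used the deposited gene lengths.

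Each comparison was tested with limma 3.58.1 (R 4.3.3) on log2(normalized reads + 1) with a mean trend, keeping genes that reached 10 normalized reads in 2 or more of its 4 libraries, 15918 and 15749 genes, with Benjamini-Hochberg adjustment over all of them. Fold changes are on that scale. A call is an adjusted p under 0.05. All 10 members passed the filter in both comparisons. Shares were compared by exact permutation over libraries. Alternatives were a pseudocount of 0.1, other filters, no trend, edgeR 4.0.16, DESeq2 1.42.0, TMM or nuclear scaling, a 6-library fit, a replicate block and leaving out each library. The main, pseudocount, edgeR and DESeq2 fits were also run on simulated data, whose results are not reported here. List symbols were matched through RefSeq locus tags, which 97.6% and 97.7% of identifiers have. Knockout libraries are numbered in table order.

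The text names all members, the other mitochondrial protein and rRNA genes and *hlh-30*. It also names list genes that illustrate a count and the 5 nuclear genes most like the members' mean. *ucr-2.3*, *cox-4* and *nuo-1* were chosen after their values were seen. The members and lists were chosen with earlier results of these data known.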

Additional observations from a re-analysis of the deposited data

How the results depend on the processing

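Precision was limited by 2 libraries per group. Among results with a test, all kept their direction wherever they passed it. In overexpression, 2351 genes were called, 0 without a filter on low reads, 3 without the mean trend and 13 in a single fit of all 6 libraries. Of these, 296 changed at least 2-fold, and 0, 3 and 12 did so under the same settings and 184 with DESeq2. The higher and lower calls, 1068 and 1283, became 1583 and 528 with scaling to nuclear genes, which moved the median of all genes from −0.00 to 0.09. Under that scaling 2 members (*nduo-2*, *ctb-1*) were higher and 0 lower, and the median of the members was 0.0771 in place of −0.0101. The call of *ctc-3* (1 member lower) was also lost, leaving 0, without a filter, without the trend and in the 6-library fit. In the knockout, 2 genes were called and both changed at least 2-fold. There were 1 without a filter, 0 without the trend and 3 in the 6-library fit on either count, and 118 with DESeq2, 61 of them at least 2-fold. DESeq2 called 1 member, and the median of the members was 0.37 with scaling to nuclear genes. The causes were not tested beyond what each setting changes by construction.

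Leaving out 1 library at a time gave 0 to 2898 calls in overexpression, of which 0 to 399 were at least 2-fold, with 0 to 1 members higher, 0 to 1 lower and a median of −0.0738 to 0.0204. In the knockout it gave 0 to 4075 calls and 0 to 550 at least 2-fold, with 0 to 8 members higher, 0 to 0 lower and a median of 0.26 to 0.36. The difference in the share of reads was −0.0123 to 0.0406 percentage points for overexpression and 0.173 to 0.226 for the knockout.

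With the replicate number as a block, 2920 genes were called in overexpression and 1 member, *nduo-2*, was higher (limma adjusted p = 0.0202). Deviations of same-numbered libraries correlated at r = 0.0273 over 15918 genes, so the numbers were not shown to pair the samples. For the knockout comparison there is no such fit. No paired analysis was possible because its columns carry no replicate number that the labels tie to a sample.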

Other observations

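Outside the mitochondrial genome, the genes whose log2 level over the 6 libraries followed the mean log2 level of the members most closely, among 15547 genes, were *C06B3.6* (Pearson r = 0.994), *frpr-5* (0.994), *E01G4.3* (0.993), *F45E4.6* (0.991) and *tnc-2* (0.987). *tnc-2* encodes a troponin C, a calcium sensor of muscle. *C06B3.6* was at 3843 and 4271 normalized reads in the knockout against 2264 and 2601 in the control (log2 fold change 0.74 ± 0.11, limma adjusted p = 0.373). They were picked as the highest of many coefficients over few libraries, so these values describe the set only.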
